A study of Mus musculus with 11 samples.

Results

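DNA methylation of 10 Notch pathway genes was examined in the newborn mouse pancreas. The genes are the receptors Notch1, Notch2, Notch3 and Notch4, the ligands Dll1, Dll4, Jag1 and Jag2, and the transcriptional targets Hes1 and Hey1. They are 10 of the 25802 genes listed, and were taken by symbol from the promoter and gene body tables. A CpG island or a 5000 bp tile belonged to a gene when it shared at least 1 bp with its promoter or gene body, which gave 10 of 24391 promoters, 10 of 25802 gene bodies, 19 of 14841 CpG islands and 71 of 259716 tiles. The study asked whether exposure to amphetamine in the womb, or sex, went with a different DNA methylation landscape. Pancreata were taken at postnatal day 0 from 11 wild type C57BL/6N mice. The dams of 5 mice (3 female, 2 male) had received amphetamine at 10 mg/kg on embryonic days 14.5, 15.5 and 16.5, and the dams of the other 6 (3 female, 3 male) were labelled saline. The litters of the mice are not given by the labels, so p-values measure the spread between mice, some of which may share a dam. The comparisons by treatment and by sex used the same 11 mice and are not independent of each other.

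Notch signalling works by contact between neighbouring cells. A ligand of the Delta or Jagged family binds a Notch receptor on the next cell, the receptor is cut by a metalloprotease and then by gamma-secretase, and the freed intracellular domain joins the DNA-binding protein RBPJ to switch on targets such as Hes1 and Hey1. In the developing pancreas the pathway holds progenitors back from endocrine differentiation, in part through repression of Neurog3 by HES1. Methylation of CpG sites is usually low at CpG-rich gene starts and high across the bodies of genes.

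Reduced representation bisulfite sequencing (RRBS) reads CpG sites close to the cut sites of restriction enzymes, here MspI, which cuts CCGG, and TaqI, which cuts TCGA. The deposited values are group summaries, so for each region the authors' mean, SD, lowest and highest mouse are given, in percent of methylated calls. Coverage, taken here as the reads of a region totalled across its CpG sites, ran in the promoters with values in all mice from 119 to 1508 for the amphetamine group and from 111 to 1068 for the saline group. Over all promoters with values in all mice its median was 288.0 and 233.0, so the amphetamine group was read more deeply. Here and below, values over all promoters, gene bodies, CpG islands or tiles cover those with values in all mice, unless stated. Differences were tested with limma's moderated test, 2-sided, over all regions of a class with values in all 11 mice, and a call is an adjusted p under 0.05. The tissue label could be checked only weakly, since 4 of 8 acinar and 3 of 6 islet marker genes had a listed promoter. Those ran from 15.5% to 90.3% and from 0.758% to 90.0% in saline mice. Listed marker promoters of blood, liver, gut, mesenchyme and endothelium ran from 3.14% to 82.5% in saline mice, so these levels do not set the tissues apart.

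None of the Notch pathway regions was called between amphetamine and saline mice by limma. Of 9 promoters, 10 gene bodies, 16 CpG islands and 60 tiles that entered the fit, 1, 2, 0 and 1 had an unadjusted p under 0.05. Over all regions of these classes 0.0% were called in each, and 4.2% of promoters, 4.2% of gene bodies, 3.91% of CpG islands and 4.33% of tiles had an unadjusted p under 0.05. In the promoters, 5 members had the higher mean in the amphetamine group and 4 in the saline group, with a median difference of 0.012 percentage points, against -0.0249 over all promoters. The gene bodies had the higher mean in the amphetamine group for 3 members and in the saline group for 7, with a median of -1.48 points against -0.122 over all gene bodies. The islands were divided 8 to 8, with a median of -0.223 points against -0.000682 over all islands. The tiles were divided 22 to 38, with a median of -0.936 points against -0.104, and over all tiles 48.9% had the higher mean in the amphetamine group. Methylation of a whole pancreas is an average over its cells, so a different mix of cell types and a different level within a cell type cannot be told apart.

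**Figure D1:**
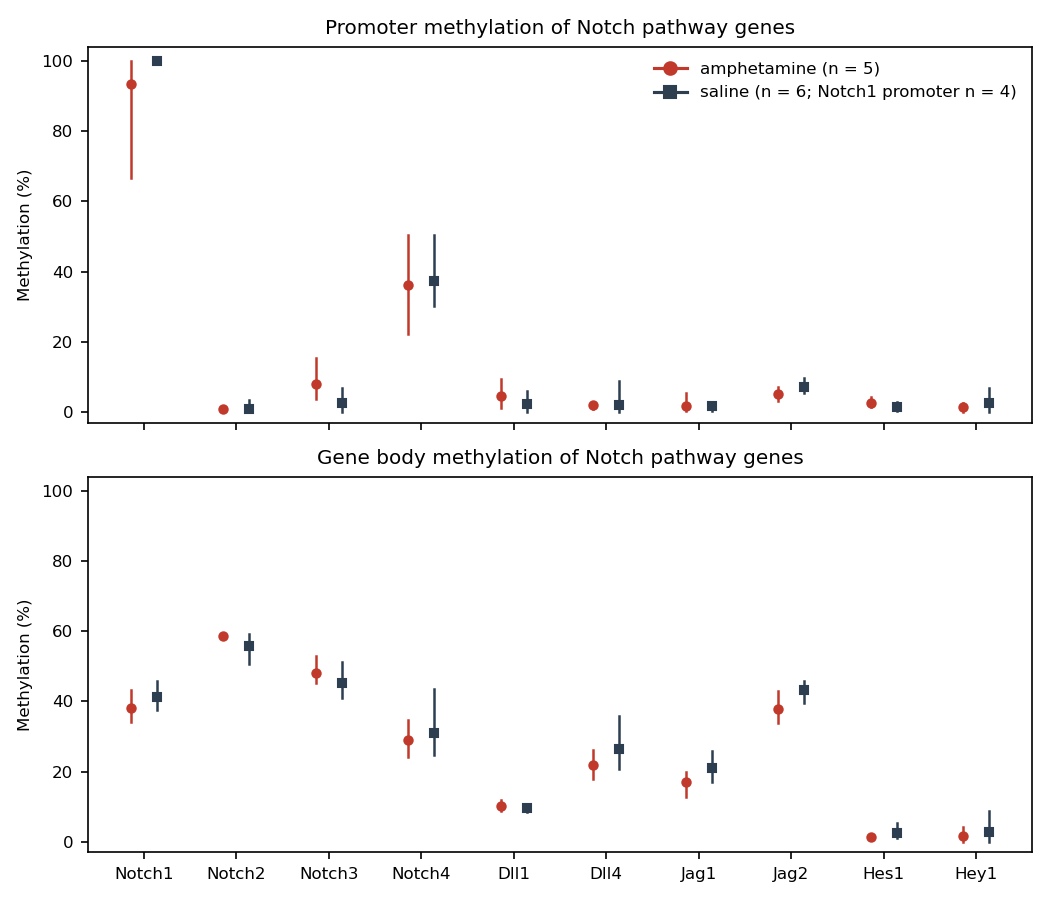
Methylation (%) of the promoter (top) and gene body (bottom) of each Notch pathway gene. Points are the authors' group means and lines run from the lowest to the highest mouse, for amphetamine (circles) and saline (squares). Of the promoters, those of Notch1 and Notch4 stand above 30% in saline mice, and the groups overlap in each gene.

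The receptor genes had the widest range of levels at the promoter. Promoters here span 1500 bp before to 500 bp after the start of the gene in the table. The Notch2 promoter (chr3:98012038-98014037, coordinates in mm10) was at 0.872% ± 0.596 (SD, n = 5) in amphetamine mice and 0.860% ± 1.31 (SD, n = 6) in saline mice, with the highest mouse at 1.57% and 3.42%. It holds exon 1 with the 5' UTR and the first coding bases, and only 5.54% of all promoters had a lower saline mean. The Notch4 promoter (chr17:34562768-34564767) stood at 36.3% ± 11.6 and 37.3% ± 8.02, between 22.2% and 50.4% and between 30.3% and 50.4%. Notch4, a receptor best known from endothelium, has 26 CpG sites in this window, 13 of them within 50 bp of a cut site, and no CpG island at its start. The difference of -1.03 points had a 95% interval from -16.0 to 13.9 points, so this window is imprecise.

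The promoter listed for Notch1 (chr2:26516164-26518163) was nearly fully methylated, but it lies far from the start of the main transcript. The principal transcript of GENCODE (Notch1-201, on the minus strand) starts at position 26503822, which is 12841 bp downstream of the start used by the table. Of the 5 amphetamine mice 4 were at 100% and 1 at 66.7%, as the mean and the extremes fix, while the 4 saline mice with reads were all at 100%. Coverage averaged only 27.6 and 10.7, and the promoter did not enter the fit. The CpG island at the principal start (chr2:26502390-26503993, 90 of 126 CpG sites within reach) was at 0.608% ± 1.05 and 1.12% ± 1.12, with every mouse at or below 2.78%. The RefSeq promoter window of Notch1 (chr2:26503773-26504072, minus strand, GRCm38.p6) is printed to show what this start looks like, with cut sites in capitals.
Notch1 promoter: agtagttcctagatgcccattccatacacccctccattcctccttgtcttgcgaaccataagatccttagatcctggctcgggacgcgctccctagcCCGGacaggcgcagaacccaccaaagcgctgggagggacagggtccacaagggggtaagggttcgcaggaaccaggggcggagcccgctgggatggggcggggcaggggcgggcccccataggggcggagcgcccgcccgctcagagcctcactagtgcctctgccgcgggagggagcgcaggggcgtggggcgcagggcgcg
Within these 300 bases lie 23 CpG sites and 1 CCGG site, and the window falls partly inside the island given above.

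Notch3 had the only member promoter with an unadjusted p under 0.05. Notch3 is the receptor of vascular smooth muscle and pericytes. Its promoter (chr17:32166381-32168380, minus strand) ran from 3.81% to 15.4% in amphetamine mice, mean 8.01% ± 4.96 (SD, n = 5), and from 0 to 6.79% in saline mice, mean 2.58% ± 2.28 (SD, n = 6). The groups overlapped between the lowest amphetamine and the highest saline mouse. The difference was 5.43 points (95% interval 0.830 to 10.0), with a limma p of 0.0245 and an adjusted p of 0.960. Coverage was 197 and 189. The start tile (chr17:32165001-32170000), which contains this promoter and is no separate evidence, stood at 6.83% ± 1.88 and 3.29% ± 2.64, with a limma adjusted p of 0.988 (unadjusted 0.0298). Its RefSeq promoter window (chr17:32166841-32167140, minus strand, GRCm38.p6), in which 5 CCGG sites and 25 CpG sites lie, reads as follows with cut sites in capitals.
Notch3 promoter: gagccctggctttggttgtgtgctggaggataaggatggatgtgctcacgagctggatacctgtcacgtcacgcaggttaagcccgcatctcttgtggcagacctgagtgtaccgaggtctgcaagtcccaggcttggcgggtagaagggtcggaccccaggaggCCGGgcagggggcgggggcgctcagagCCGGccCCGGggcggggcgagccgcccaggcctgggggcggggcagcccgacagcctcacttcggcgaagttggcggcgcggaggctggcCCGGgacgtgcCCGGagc

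Inside Notch3, methylation was low over the first introns and high beyond them. The CpG island of intron 1 (chr17:32165749-32166261) stood at 6.59% ± 3.93 and 3.90% ± 4.53 by treatment. An island in intron 2 (chr17:32162207-32162803) was at 0 in all 5 amphetamine mice and in 5 of 6 saline mice, with the last at 4.13%. The tiles beyond had saline means of 49.4% to 89.9%. The island of exon 24 (chr17:32143439-32143722, coding sequence) had the largest difference of the 16 islands in the fit. It ran from 18.5% to 47.2% in amphetamine mice (mean 35.0% ± 12.9) and from 9.95% to 30.6% in saline mice (mean 19.4% ± 8.88), so the groups overlapped. The difference was 15.6 points (95% interval -0.454 to 31.7), with a limma p of 0.0558 and an adjusted p of 0.934. The tile around it (chr17:32140001-32145000) was at 62.8% and 49.4%, with an adjusted p of 0.988 by limma (unadjusted 0.0575). The sequence of the island is shown because its level rests on few sites: 16 of its 24 CpG sites lie within 50 bp of a cut site. The 4 CCGG sites are in capitals (mm10, minus strand, read along the gene).
Notch3 exon 24 island: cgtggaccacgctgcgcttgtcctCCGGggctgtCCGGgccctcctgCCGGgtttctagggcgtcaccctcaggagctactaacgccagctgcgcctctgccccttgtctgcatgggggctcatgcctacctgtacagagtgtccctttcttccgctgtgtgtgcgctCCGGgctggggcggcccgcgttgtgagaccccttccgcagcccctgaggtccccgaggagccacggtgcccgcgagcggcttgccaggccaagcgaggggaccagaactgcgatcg

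**Figure D2:**
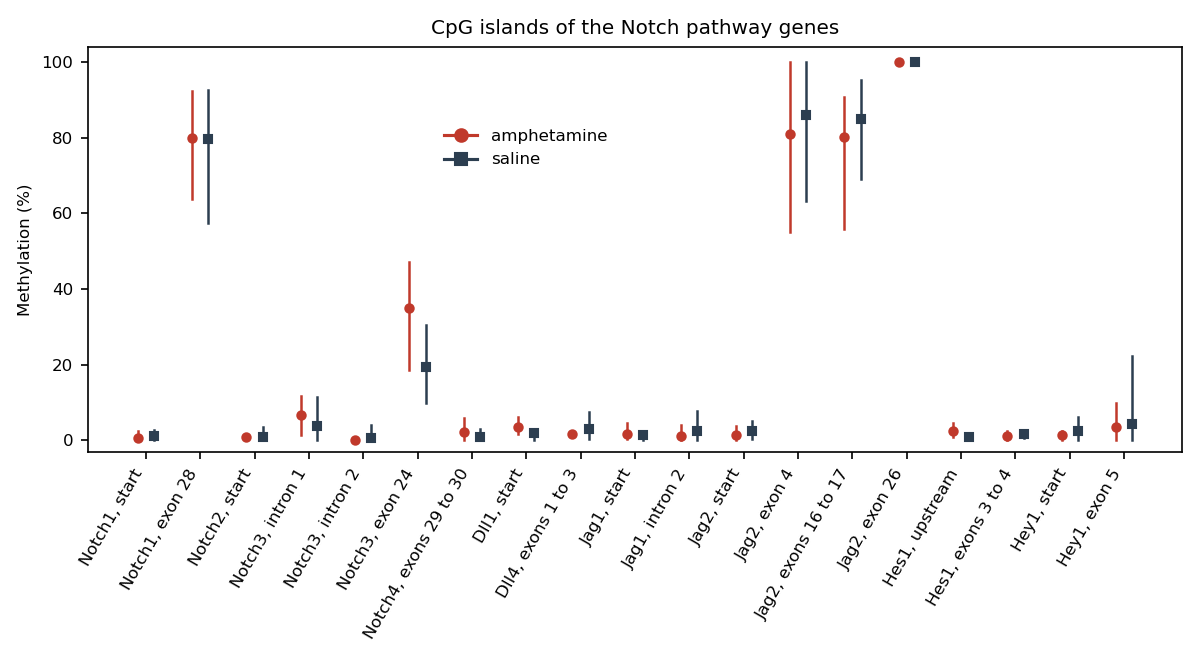
Methylation (%) of the 19 CpG islands of the Notch pathway genes, named by gene and position. Points are group means and lines run from the lowest to the highest mouse, for amphetamine (circles) and saline (squares). The islands at gene starts lie near 0, and those in exons of Notch1 and Jag2 at about 80% or above.

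The largest difference by treatment lay in Notch2, in a tile of intron 1 that did not enter the fit because 1 saline mouse had no reads there. The tile (chr3:98025001-98030000, 13962 bp from the start to its centre) ran from 52.1% to 100% in amphetamine mice, mean 78.7% ± 21.1 (SD, n = 5). Of 5 saline mice with reads 4 were at 0 and 1 at 45.3%, mean 9.07% ± 20.3. The lowest amphetamine mouse thus lay above the highest saline mouse. Coverage, totalled across CpG sites, averaged 29.4 and 25.5, and its lowest value in the amphetamine group was 6. Taken this way, a read over several CpG sites counts more than once, so the number of separate reads can be smaller. Over the tiles with values in at least 3 mice of each group, which included 70 of the 71 member tiles, the ranges did not overlap in 1 member tile, this one, and in 0.458% of all 253516 tiles. A fit on those tiles gave a difference of 69.6 points (95% interval 42.0 to 97.1), a limma p of 0.000243 and an adjusted p of 0.738. Of all 253516 tiles, 0.349% had a difference above 50 points in either direction. Among the regions with values in all mice, no member had ranges that do not overlap, against 0.395% of all promoters, 0.312% of gene bodies, 0.443% of CpG islands and 0.351% of tiles.

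The tile holds 60 CpG sites, of which 21 lie within 50 bp of its 6 cut sites. The level of the tile does not show which of these sites gave the reads. The 3 cut sites with the most CpG sites in reach, 5 each, are printed with 50 bases to either side (mm10, plus strand, cut site in capitals).
Notch2 intron 1, chr3:98025484-98025587: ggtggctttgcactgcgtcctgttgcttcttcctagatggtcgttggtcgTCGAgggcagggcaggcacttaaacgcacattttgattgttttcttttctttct
Notch2 intron 1, chr3:98025694-98025797: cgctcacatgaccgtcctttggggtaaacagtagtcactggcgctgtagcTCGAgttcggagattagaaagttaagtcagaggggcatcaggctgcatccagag
Notch2 intron 1, chr3:98029002-98029105: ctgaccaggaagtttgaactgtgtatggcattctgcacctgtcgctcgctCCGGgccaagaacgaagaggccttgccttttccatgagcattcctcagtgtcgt
In the neighbouring tiles the group means lay closer together. Upstream, the tile chr3:98020001-98025000 stood at 23.9% and 15.5%, and the tile before it at 59.2% and 54.5%, with limma adjusted p of 0.988 and 0.992. The next listed tile downstream had reads in only 2 amphetamine mice.

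**Figure D3:**
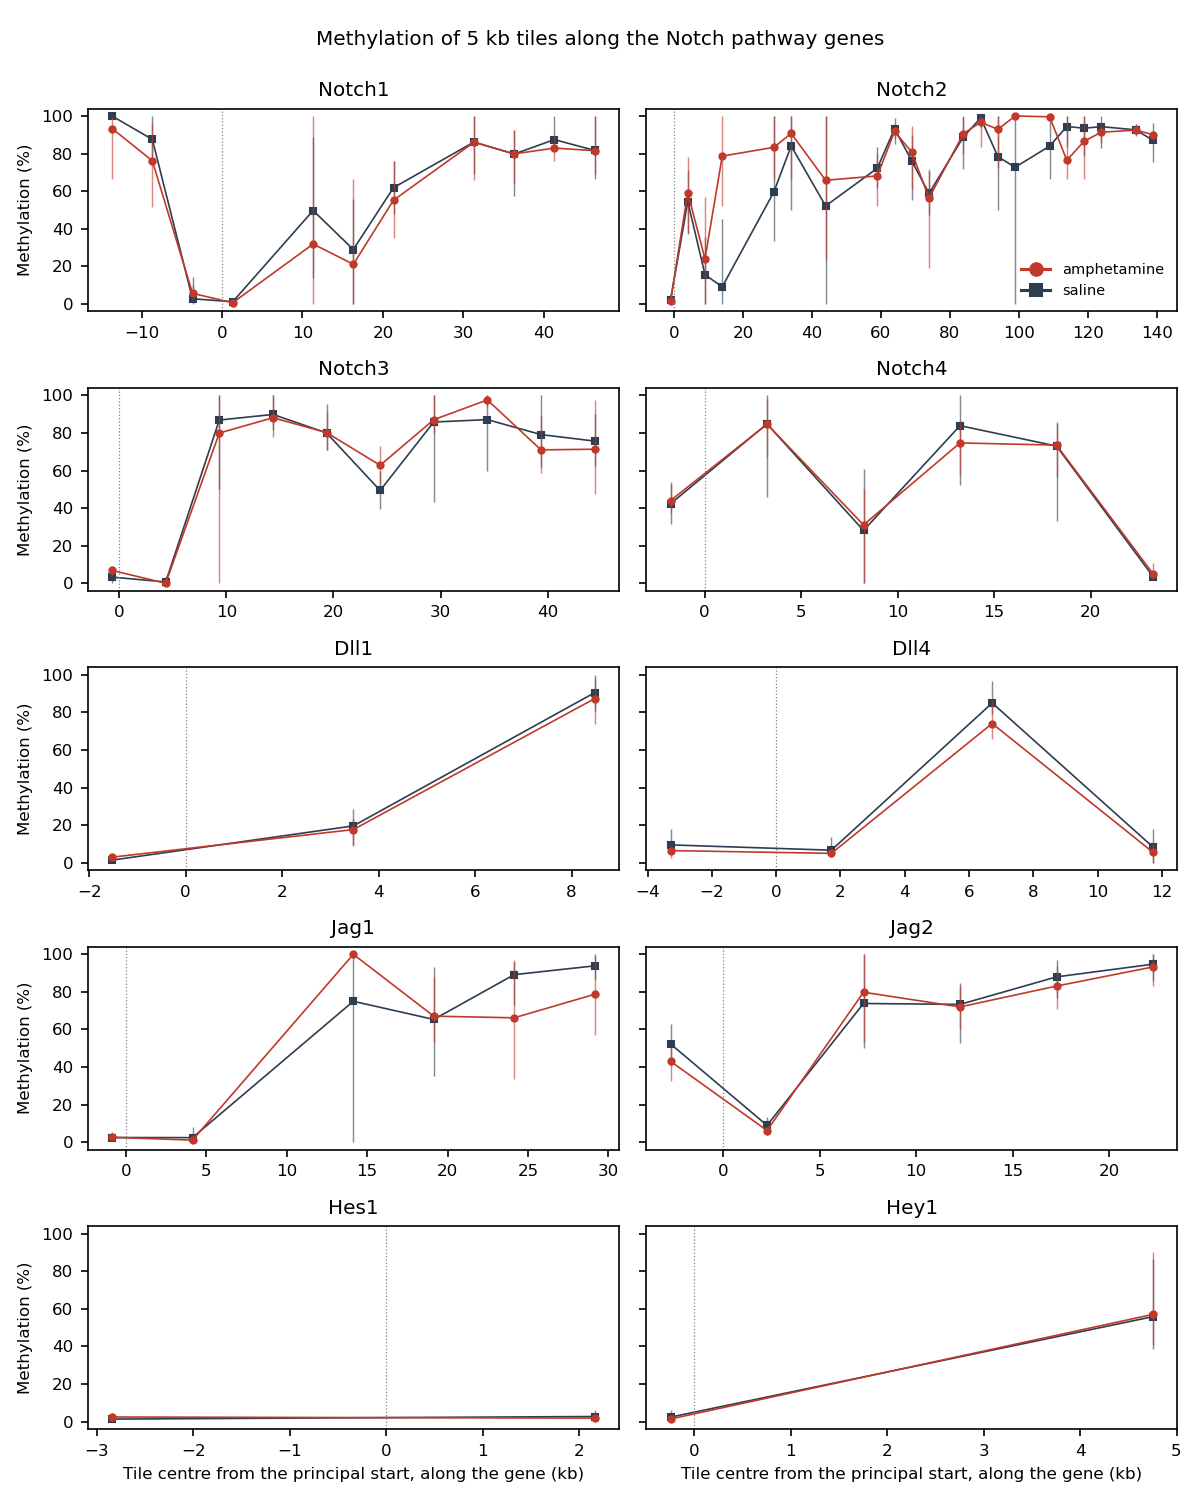
Methylation (%) of each 5000 bp tile against the distance of its centre from the principal start (kb, along the direction of the gene). Points are group means and lines join neighbouring listed tiles, with thin bars from the lowest to the highest mouse. The start is low in every gene but Notch4, and the Notch2 tile with means of 78.7% and 9.07% stands apart from its neighbours.

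Along the receptors, except Notch4, the tile at the start was low and most tiles of the body were methylated. Over all 10 members, ligands and targets included, 9 of the 10 tiles holding a principal start had a saline mean under 10%. The exception was Notch4 at 42.3%. Of the other 50 member tiles in the fit, 38 had a saline mean of 50% or more, and the median over all tiles was 83.6%. The body means of Notch1 were 38.3% ± 3.86 and 41.2% ± 2.93, those of Notch2 58.7% ± 0.880 and 55.7% ± 3.14, those of Notch3 48.3% ± 2.95 and 45.2% ± 4.10, and those of Notch4 29.2% ± 4.05 and 31.0% ± 8.04. The island in exon 28 of Notch1 (chr2:26465449-26465654) was at 79.8% in both groups, while the only island of Notch4, in exons 29 to 30 (chr17:34586860-34587906), was at 2.17% ± 2.27 and 0.833% ± 1.35. The smallest p of the Notch1 tiles was 0.171 and that of the Notch4 tiles 0.284 by limma, at adjusted p of 0.988.

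Of the ligands, the 2 Jagged genes had gene bodies with an unadjusted p under 0.05, both with the lower mean in the amphetamine group. Jagged and Delta ligands bind the same receptors, and sugars that Fringe enzymes add to the receptor favour the Delta ligands. The Jag2 body (chr12:112908590-112929495) ran from 33.9% to 43.1% in amphetamine mice, mean 37.7% ± 3.93, and from 39.5% to 45.9% in saline mice, mean 43.4% ± 2.46. The difference of -5.67 points (95% interval -10.6 to -0.700) had a limma p of 0.0289 and an adjusted p of 0.994. The Jag1 body (chr2:137081456-137116644) ran from 12.9% to 19.8% and from 17.1% to 25.8%, with means of 17.0% ± 2.88 and 21.2% ± 3.05. Its difference was -4.15 points (95% interval -8.23 to -0.0572), with a limma p of 0.0474 and an adjusted p of 0.994. In each gene the groups overlapped.

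The Jagged bodies were made up of low starts and high interiors. The Jag1 promoter was at 1.69% and 1.62% and its start island (chr2:137115364-137117627) at 1.65% and 1.43%, so the group means were close there. The widest differences were in the tiles of exons 8 to 13 (chr2:137090001-137095000), at 66.2% and 89.2%, and of exons 14 to 23 (chr2:137085001-137090000), at 78.7% ± 17.7 and 93.9% ± 5.38, with a limma adjusted p of 0.988 for each. In Jag2 the start island (chr12:112928401-112929942) was at 1.37% and 2.45% and the promoter at 5.08% and 7.23%. Its islands in exon 4 and in exons 16 to 17 were methylated, at 81.0% and 86.1% and at 80.1% and 84.9%. The exon 4 island lacked values in some mice and did not enter the fit, and 7 of its 19 CpG sites lie within reach of a cut site. The last island, in exon 26, was at 100% in each of the 9 mice with reads, at a coverage of 14.8 and 13.0. Of the 6 Jag2 tiles, 5 had the lower mean in amphetamine mice.

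The Delta ligands were low at the start, and the level of the body differed between Dll4 and Dll1. Dll4, the ligand of sprouting endothelium, had a promoter at 1.87% ± 0.909 and 1.89% ± 3.46, and a body at 21.8% ± 3.27 and 26.5% ± 5.51. All 4 of its tiles had the lower mean in amphetamine mice. The tile of exons 7 to 11 (chr2:119330001-119335000) had the smallest p of these, at 74.1% ± 8.70 and 85.0% ± 6.22, with a limma adjusted p of 0.988 (unadjusted 0.0514). Dll1, which acts in the pancreatic epithelium among other tissues, had a body at 10.3% ± 1.27 and 9.76% ± 0.898. Its listed promoter (chr17:15376373-15378372) was at 4.61% ± 3.40 and 2.38% ± 2.07 but misses the principal start, which lies 896 bp downstream of the table's. The island over that start (chr17:15374641-15376785) was at 3.47% ± 1.63 and 1.96% ± 1.05, a difference of 1.51 points (95% interval -0.584 to 3.60).

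The targets Hes1 and Hey1, transcriptional repressors of the basic helix-loop-helix class, had the lowest gene bodies of the 10 members. The Hes1 promoter was at 2.44% ± 1.18 and 1.32% ± 1.05, its body at 1.26% ± 0.281 and 2.43% ± 1.56. This promoter window also misses the principal start, which lies 956 bp downstream of the table's, in a tile (chr16:30065001-30070000) at 1.83% and 2.70%. Only 4.53% of all gene bodies had a lower saline mean than Hes1 and 5.08% a lower one than Hey1. The Hes1 island upstream of the start (chr16:30063279-30064577) ran from 0.862% to 4.53% in amphetamine mice and from 0.132% to 1.91% in saline mice, with a limma adjusted p of 0.934 (unadjusted 0.0627). The Hey1 promoter was at 1.43% ± 1.01 and 2.56% ± 2.37, and its body at 1.61% ± 1.62 and 2.71% ± 3.43. The tile chr3:8660001-8665000, which runs from the last exon of Hey1 past its end, was at 57.1% and 55.9%.

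**Figure D4:**
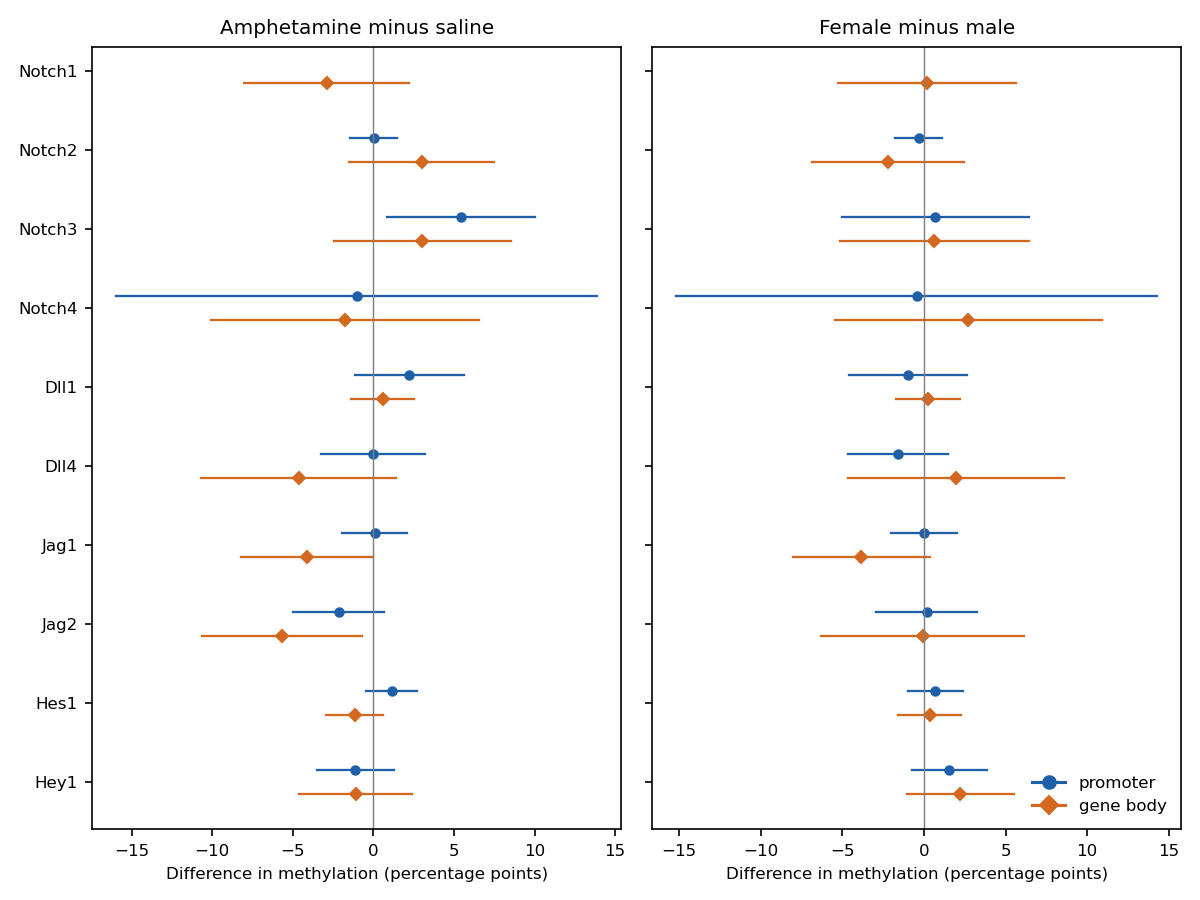
Difference in methylation (percentage points) of promoters (circles) and gene bodies (diamonds), amphetamine minus saline (left) and female minus male (right), with 95% intervals from the limma fit. By treatment the interval misses 0 for the Notch3 promoter and the Jag1 and Jag2 bodies, and by sex for none; no adjusted p is under 0.05. The Notch1 promoter was not in the fit.

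Between 6 female and 5 male mice, again no Notch pathway region was called by limma, and 0 of 9 promoters, 0 of 10 gene bodies, 1 of 16 CpG islands and 3 of 60 tiles had an unadjusted p under 0.05. Over all regions 0.695% of promoters, 0.43% of gene bodies, 1.23% of CpG islands and 0.0605% of tiles were called, and the calls were 0 in each class once chromosomes X and Y were left out. The shares at an unadjusted p under 0.05 were 6.42%, 6.44%, 6.43% and 5.52%. No member region had sexes whose ranges do not overlap, against 1.55% of promoters, 1.03% of gene bodies, 1.91% of CpG islands and 0.626% of tiles. These shares include X and Y, where no member lies. With X and Y left out, ranges did not overlap in 93 of 20150 promoters and 102 of 22703 gene bodies. In islands and tiles this held for 65 of 13203 and 905 of 192983. An unadjusted p under 0.05 was then found in 986 promoters, 1227 gene bodies, 607 islands and 10084 tiles.

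The Notch3 island of intron 1 had the smallest adjusted p of the members. It ran from 2.42% to 11.8% in females, mean 8.09% ± 3.42 (SD, n = 6), and from 0 to 4.10% in males, mean 1.57% ± 1.54 (SD, n = 5). The sexes overlapped between 2.42% and 4.10%. The difference of 6.52 points (95% interval 2.87 to 10.2) had a limma p of 0.00217 and an adjusted p of 0.140, or 0.885 when chromosomes X and Y were left out of the fit. The adjoining promoter was at 5.36% ± 3.24 and 4.68% ± 6.15, with a limma adjusted p of 0.977. The start tile that holds both was at 6.53% ± 1.66 and 2.93% ± 2.92 (unadjusted p 0.0265, limma adjusted p 0.886). The first 300 bases of the island along the gene (chr17:32165962-32166261, mm10, minus strand) are shown, with 4 CCGG sites in capitals and 28 CpG sites; in the whole island 41 of 42 lie within reach of a cut site.
Notch3 intron 1 island: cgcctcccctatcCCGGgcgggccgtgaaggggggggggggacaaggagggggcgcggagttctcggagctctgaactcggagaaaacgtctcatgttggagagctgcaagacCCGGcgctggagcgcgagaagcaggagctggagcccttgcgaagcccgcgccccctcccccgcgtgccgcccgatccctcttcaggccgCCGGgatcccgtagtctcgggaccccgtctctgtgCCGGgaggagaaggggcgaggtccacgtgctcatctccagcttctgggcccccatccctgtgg

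The other tiles with an unadjusted p under 0.05 lay inside Notch3 and Notch2. The Notch3 tile of exons 3 to 8 (chr17:32155001-32160000) was at 100% in all 6 females and between 0 and 100% in males, mean 64.3% ± 41.6 (SD, n = 5), with a limma p of 0.0352 and an adjusted p of 0.898. Its coverage was 59.2 and 35.8, and by treatment the mouse at 0 was in the amphetamine group, where the other 4 were at 100%. The Notch2 tile chr3:98020001-98025000 in intron 1 ran from 0 to 18.4% in females, mean 6.53% ± 7.18, and from 14.3% to 57.1% in males, mean 34.7% ± 17.0. This difference of -28.1 points (95% interval -43.0 to -13.2) had the smallest p of all member regions in the fit, 0.00150, and an adjusted p of 0.523. In the tile that separated the treatments, the next one along the intron, the 6 females stood at 37.8% ± 44.1 and the 4 males with reads at 53.0% ± 41.9, each with mice at 0 and at 100%.

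**Figure D5:**
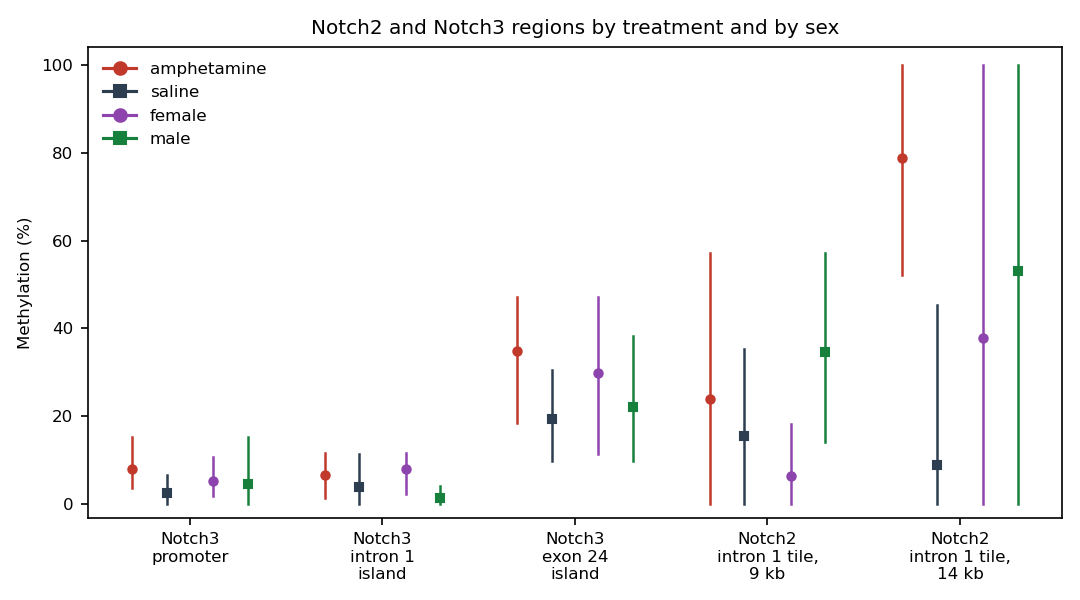
Methylation (%) of 3 Notch3 and 2 Notch2 regions, by treatment (amphetamine, saline) and by sex (female, male) in the same mice. Points are group means and lines run from the lowest to the highest mouse. The treatments separate in the Notch2 tile at the right, where the sexes both span 0 to 100%.

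The rest of the pathway was taken from a list of 47 other genes, of which 44 had a listed promoter and 42 a promoter in the fit. None was called in either comparison by limma. Between the treatments 2 gene bodies had an unadjusted p under 0.05, that is 4.26% of those fitted against 4.2% of all gene bodies. They were those of Psen2, a subunit of gamma-secretase, at 25.4% ± 2.43 and 31.7% ± 5.37, and of the target Hey2, at 0.857% ± 1.15 and 7.60% ± 6.17, each with a limma adjusted p of 0.994. Between the sexes 4 of the 42 promoters had an unadjusted p under 0.05, that is 9.52% against 6.42% of all promoters. The ranges did not overlap in 3 of the 42, against 1.55% of all promoters, and 2 of these 3 were among the 4. None of these promoters lies on chromosome X or Y. With X and Y left out, 93 of 20150 promoters had ranges that do not overlap, and 986 had an unadjusted p under 0.05. The promoter of Pofut1, which puts O-fucose on the receptors, was at 1.84% ± 1.08 in females and 4.03% ± 0.581 in males (limma adjusted p 0.425), with no overlap. The promoter of Poglut1, which adds O-glucose, was at 3.74% ± 3.49 and 0.368% ± 0.361, also with no overlap. The ubiquitin ligase gene Dtx2 was at 20.8% ± 1.93 and 14.6% ± 3.13, with no overlap and a limma p of 0.0503. Neurl1b, which drives endocytosis of ligands, was at 3.60% and 0.246%, and Neurog3, the endocrine progenitor gene, at 4.48% ± 2.93 and 1.15% ± 1.60. Among gene bodies, that of Maml2, a coactivator, was at 81.3% ± 8.77 and 62.2% ± 13.1. The smallest limma adjusted p between the sexes was 0.425 for these promoters and 0.507 for these bodies. In saline mice 26 of the 42 promoters were under 5%, against 47.9% of all promoters.

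The RefSeq promoter windows of 300 bases were available for 8 of the 10 genes, in 9 windows. The core of the RBPJ motif, TGGGAA on either strand, was in 0 of the 9, against 25.6% of 32851 windows. Whether 0 of so few windows differs from that share was not tested. Hes1 and Hey1 had no entry. The windows hold from 5 CpG sites in Notch4 to 63 in Jag2. Notch4, with the fewest, had the highest promoter level of the members in the fit.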

How the data were processed

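RRBS libraries came from pancreata of 11 mice. MspI and TaqI were the enzymes and 50 bp single-end reads were sequenced. The authors ran the NextFlow methylseq pipeline, with Bismark against mm10, and summarised CpG sites per promoter, gene, CpG island and 5000 bp tile with RnBeads. The Bismark version is not given in the sources used here. The deposited methylation values are fractions, given by the authors as group means over the mice with reads and printed here as percent, with the authors' SD, lowest and highest mouse and number of mice without a value. The deposited coverage is a group mean too, with no correction for depth. The tables also hold the authors' own differences, quotients, p-values, adjusted p-values and ranks, which were not used. Values per mouse, and depth per mouse, were not analysed here. Reads without molecular identifiers are not independent molecules.

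The pooled variance of each region was rebuilt from the group SDs and numbers of mice and moderated with limma 3.58.1 in R 4.3.3 (squeezeVar with a trend on mean methylation). Regions with values in all mice entered, p-values were adjusted by Benjamini-Hochberg over all regions of a class, and the threshold was 0.05. The code was checked on simulated data. Alternatives were no trend, no moderation, an arcsine scale, coverage of at least 10, at least 3 mice of each group, an unadjusted p under 0.01 and autosomes alone. Sequences and cut sites were read from GRCm38, the assembly of mm10, with pysam 0.24.0. The build of the files was checked through tile positions, and gene models are GENCODE's. Regions were named where an unadjusted p was under 0.05, where group ranges did not overlap, or, per gene, for the tile with the smallest p. Other regions are given to describe a member gene. The members and lists were chosen with earlier results of these data known. Results of 1 gene on the list of other pathway genes are not reported here.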

Additional observations from a re-analysis of the deposited data

Results flagged for a closer look

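The Notch2 tile of intron 1 (chr3:98025001-98030000) lies outside the regions tested in all mice, and its means were 78.7% in amphetamine and 9.07% in saline mice. It drew attention because its ranges do not overlap between the groups, which was true of 0.458% of tiles with values in at least 3 mice of each group. Tests for 1 mouse far from its group need values per mouse and were not run.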

How the results depend on the processing

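No member region was called by limma under any of the 6 other settings of the fit, in 8 combinations of region class and comparison; the smallest adjusted p of any was 0.060, for the Notch3 intron 1 island by sex on the arcsine scale, and the same island had 0.140 as reported and 0.885 without X and Y. Counts at an unadjusted p under 0.05 moved between 1 and 2 for gene bodies, 0 and 1 for islands and 1 and 3 for tiles by treatment, and between 1 and 2 for islands and 2 and 5 for tiles by sex. The gene body that dropped out was that of Jag1, with a limma p of 0.0569 without a trend and 0.0536 on the arcsine scale. The Notch3 start tile dropped out without a trend, with a limma p of 0.127 by treatment and 0.119 by sex. The Notch3 tile of exons 3 to 8 dropped out by sex in the fit without moderation, at a p of 0.0626. Tiles whose ranges do not overlap by treatment were 0 in all mice and 1 where 3 mice of each group sufficed. Of 19 overlapping islands and tiles, 17 had the direction of the promoter by treatment. These regions overlap the promoter and can share its reads, so the agreement is no separate evidence. The start tile of Notch2 (-0.24 points) and that of Notch4 (1.69 points) had the other direction. Over the series, treatment calls of 0 became 19 promoters, 3 islands and 8 tiles on the arcsine scale, 1 promoter and 9 tiles with at least 3 mice, 1 promoter, 1 gene body and 1 island without moderation, and 1 tile without a trend. Calls by sex became 276 promoters, 291 islands and 280 tiles on the arcsine scale, 60 gene bodies and 50 tiles without moderation, 78 tiles without a trend and 0 without X and Y. The causes were not tested. Leaving out single mice was not run, since values per mouse were not used. No paired analysis was possible because the tables hold group summaries and the labels give no pairs. Thin coverage limits the Notch1 promoter and the Notch2 intron tile, among other regions.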
